A study of Mus musculus with 7 samples.

Results

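The SLC2A genes encode the facilitative sugar transporters (GLUT proteins), and 10 of them were followed here in MIN6, an insulin-secreting line derived from mouse pancreatic beta cells. They were chosen by name, as all array probes whose annotated RefSeq transcript belongs to Slc2a1, Slc2a2, Slc2a3, Slc2a4, Slc2a5, Slc2a6, Slc2a8, Slc2a9, Slc2a10 or Slc2a12. This gave 14 probes for 10 of the 45616 genes or transcript names on the array, with 1 probe for 6 of the genes and 2 probes for the other 4. Vehicle cells received phosphate-buffered saline (PBS) for 3 days (3 arrays), and treated cells received a polysaccharide extract of Maidong (MPE) for 3 days (4 arrays). Both groups were of the same line and medium. The culture notes list MPE from 0.05 to 50 μg/mL without naming the concentration used for the arrays. Whether replicates were grown as separate cultures is not stated in the labels. The p-values therefore cover only the spread between these 7 samples, possibly a technical one.

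GLUT proteins let sugars cross membranes down their concentration gradient, without using energy. In rodent beta cells, GLUT2, the product of Slc2a2, is the transporter classically held to carry glucose in fast enough for the cell to sense its blood level, whereas GLUT1 (Slc2a1) supplies basal glucose in most tissues and in cultured cells. Slc2a3 encodes the high-affinity transporter of neurons, Slc2a4 the insulin-regulated one of muscle and fat, and Slc2a5 the fructose transporter of the intestine. The other members act mostly on inner membranes or on other substrates, urate in the case of Slc2a9.

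The sequences just before the annotated starts of Slc2a1 and Slc2a2 are shown because these are the ubiquitous and the classical beta-cell glucose transporter genes, and they lay on opposite sides of detection in these cells. Each run is the 250 bases before the start on the plus strand, 5′ to 3′, from RefSeq (GRCm38.p6), where 8 of the 10 members had an entry.
Slc2a1, chr4:119108495-119108744: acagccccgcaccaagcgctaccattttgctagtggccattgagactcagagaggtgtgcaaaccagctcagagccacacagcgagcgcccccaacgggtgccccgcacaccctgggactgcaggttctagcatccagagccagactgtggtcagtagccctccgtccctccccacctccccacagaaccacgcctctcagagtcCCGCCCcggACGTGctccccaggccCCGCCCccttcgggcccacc
Slc2a2, chr3:28697653-28697902: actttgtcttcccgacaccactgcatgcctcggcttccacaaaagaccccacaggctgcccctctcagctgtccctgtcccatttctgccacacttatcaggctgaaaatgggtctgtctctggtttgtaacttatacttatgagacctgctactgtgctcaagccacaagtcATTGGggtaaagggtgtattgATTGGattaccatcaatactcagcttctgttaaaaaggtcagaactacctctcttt
Capitals mark matches on either strand to the GC box (GGGCGG), the CCAAT box (CCAAT), the core of the hypoxia response element (ACGTG) or the TATA box (TATAAA). The stretch before Slc2a1 held 2 GC boxes and 1 hypoxia core, and that before Slc2a2 held 2 CCAAT boxes. No match overlapped another. Of all 32851 windows of this length, 32.7% held a GC box, 16.6% a hypoxia core, 33.8% a CCAAT box and 12.4% a TATA box. G and C made up 66.4% of the bases before Slc2a1 and 47.2% of those before Slc2a2, against a median of 52.4% over all windows. These matches and shares describe the letters only, and whether they go with detection was not tested.

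All 7 arrays lay on 1 slide, the vehicle arrays in row 1 in columns 1, 2 and 4 and the MPE arrays in row 2 in columns 1 to 4, so the effect of the row cannot be told apart from that of MPE. On each array, between 27901 and 30111 of 56605 probes were well above background. The lowest signal that counted as such was 12.6 to 15.5 on vehicle arrays and 20.7, 21.6, 24.4 and 20.6 on MPE replicates 1 to 4. Detection was thus stricter on the MPE arrays. All 10 markers of beta cells, Ins1, Ins2, Pdx1 and Slc30a8 among them, were well above background on every array. So were 4 of 5 markers of other islet cells, namely the hormone genes Gcg (signals of 8968 to 11527), Sst, Ppy and Ghrl. Of markers of exocrine cells none of 5 was, and of stromal, immune and endothelial markers 3 of 9 were.

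Of the 10 transporter genes, 7 were detected on every array and 3 on none. The detected genes were Slc2a1, Slc2a3, Slc2a4, Slc2a5, Slc2a6, Slc2a8 and Slc2a9. The others were Slc2a2, Slc2a10 and Slc2a12. By probe, 8 of 14 were well above background on all 7 arrays and the other 6 on no array. Of all probes 45.9% were well above background on all arrays and 39.4% on none, and of all genes with a symbol 56.4% had a probe that was well above background throughout. The count was the same in both groups, since every member probe had the same call on all 7 arrays. With 1 threshold for all arrays, set to the strictest one, 8 probes again passed on all 7. Signals of different probes cannot be ranked as transcript abundance, because each probe binds with its own strength, so these data say which transporter transcripts were detected, not which was the most abundant or which protein carried the glucose.

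**Figure D1:**
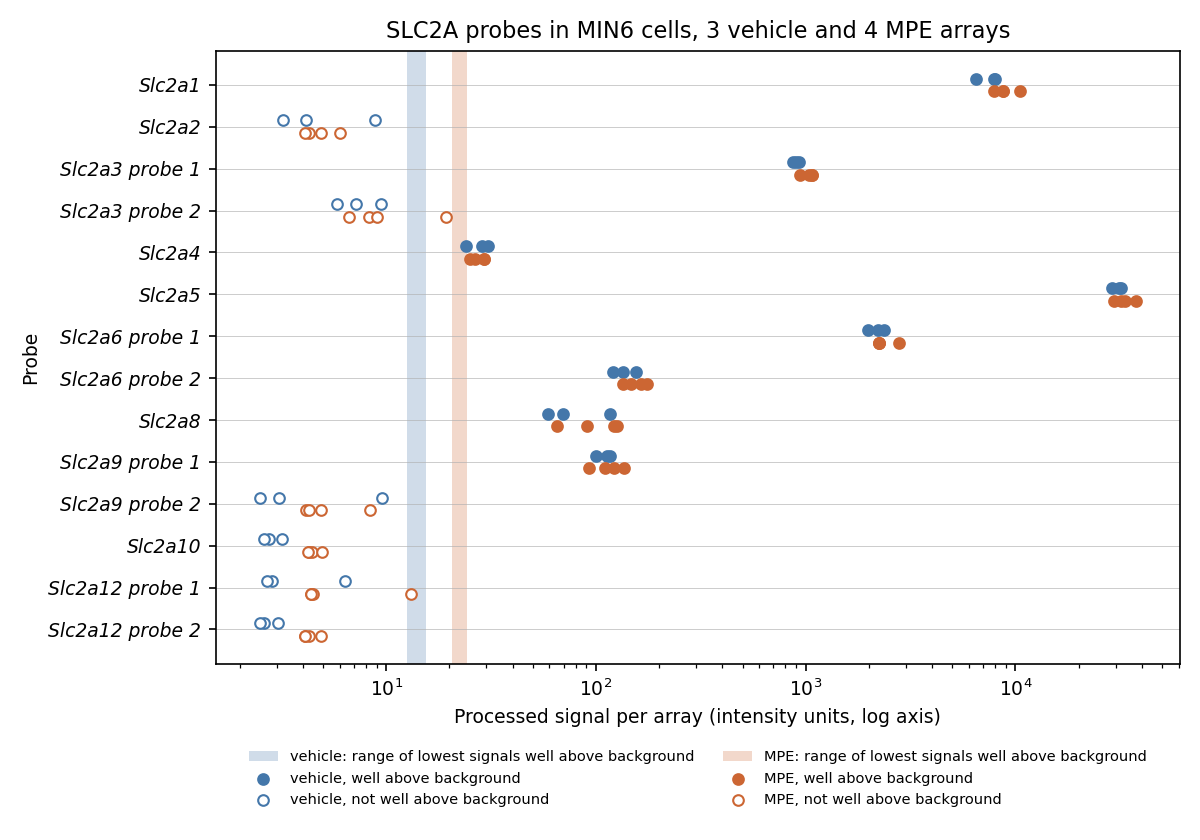
Processed signal (horizontal axis, logarithmic, intensity units) of each of the 14 SLC2A probes (vertical axis) on 3 vehicle and 4 MPE arrays, 1 point per array, filled where the spot was well above background. Shaded bands span the lowest signals called well above background in each group. Slc2a1, Slc2a5 and the first probe of Slc2a6 lie far to the right of both bands. Slc2a4 lies just to the right of the band of its own group, with vehicle 1 (23.9) inside the MPE band. Slc2a2 and Slc2a10 lie to the left of both bands. So does Slc2a12 but for its first probe at 13.1 on MPE 3, which is under the limit of that array.

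Slc2a1, the basal glucose transporter GLUT1, gave processed signals of 7877, 6516 and 7978 on vehicle arrays 1 to 3 and of 8691, 10505, 8734 and 7904 on MPE arrays 1 to 4. On each array this was at least 358 times the lowest signal called well above background there. Its raw spot signal was 6314 to 10098, before background was subtracted. Of the 308 negative-control spots, 0 were as bright on any array, so the basal transporter was detected clearly in all 7 samples.

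Slc2a2, the beta-cell and liver transporter GLUT2, gave signals of 4.15, 3.22 and 8.85 on vehicle arrays and of 6.03, 4.30, 4.86 and 4.11 on MPE arrays. All were below the detection limit of their array, at 0.199 to 0.571 times that limit. Its raw spot signal was 34 to 44, where the mean of the negative-control spots was 29.2 to 33.1. On each array, between 5 (vehicle 3) and 59 (MPE 3) of the 308 negative-control spots were as bright or brighter. One probe measured this gene, so a failing probe cannot be told apart from a transcript below detection. Pdx1, Foxa2 and Neurod1, transcription factors of beta-cell genes, were well above background on every array.

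Slc2a3 was measured by 2 probes annotated to the same transcript, and they disagreed. The first gave 902, 871 and 931 on vehicle arrays and 1034, 1070, 1077 and 939 on MPE arrays, above background on all. The second gave 7.18, 9.39 and 5.82 on vehicle arrays and 6.64, 8.32, 9.04 and 19.2 on MPE arrays, above background on none. The value of 19.2, on MPE 4, lay just under that array's limit of 20.6. Detection of the neuronal-type transporter therefore rests on 1 of its 2 probes.

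Slc2a4, the insulin-regulated transporter GLUT4, was detected on every array but close to the limit. Its signals were 23.9, 28.7 and 30.6 on vehicle arrays and 26.6, 25.2, 29.1 and 29.1 on MPE arrays. The margin over the detection limit was 1.17 to 2.28 times, smallest on MPE 2. Between 0 (vehicle 1 and 2) and 7 (MPE 1 and 3) of the 308 negative-control spots were as bright. Muscle and fat are the tissues that use GLUT4 most, and of 5 muscle and fat markers only the actin gene Acta1 was well above background on every array, whereas the muscle creatine kinase gene Ckm was above background on none.

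Slc2a5, the fructose transporter GLUT5, was detected far above background, with signals of 28815, 30998 and 31900 on vehicle arrays and 31898, 33218, 37529 and 29412 on MPE arrays. The groups overlapped, and the smallest margin over the detection limit was 1426 times. Khk, the ketohexokinase that phosphorylates fructose once it is inside the cell, was also well above background on all 7 arrays. So was Lct, the lactase of the intestinal brush border, with signals of 11154 to 15228. Of the 5 markers of hepatocytes and gut, Lct and the transthyretin gene Ttr were the 2 above background on all arrays. The other gut gene, Vil1, was above background on only 3 arrays, with signals of 11.9 to 21.3. The hepatocyte genes Alb and Apoa1 were above background on none. Slc2a5 rests on 1 probe, and binding of that probe to another transcript was not tested.

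Slc2a6, an inner-membrane transporter of low affinity, was above background on every array with both of its probes. The first gave 1970, 2208 and 2349 on vehicle arrays and 2229, 2230, 2772 and 2224 on MPE arrays. The second gave 120, 134 and 156 on vehicle arrays and 134, 146, 175 and 164 on MPE arrays. The probes differed in signal but made the same detection call.

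Slc2a8, a transporter of inner membranes, gave 59.0, 69.8 and 117 on vehicle arrays and 65.5, 90.3, 122 and 125 on MPE arrays. Slc2a9, which carries urate, was measured by probes for 2 of its transcripts. The first gave 113, 117 and 100 on vehicle arrays and 122, 135, 92.2 and 111 on MPE arrays. The second was above background on no array, with signals of 2.49 to 9.56, and a failing probe cannot be told apart here from a transcript form below detection. Slc2a10 gave 2.61 to 4.96 and Slc2a12 gave 2.70 to 13.1 and 2.49 to 4.86 with its 2 probes, none of them above background. The Slc2a10 signal followed the detection limit, at 0.204 to 0.209 times the limit of each array. On the log2 scale that limit was -4.73 to -4.61 on vehicle arrays and -4.16 to -4.11 on MPE arrays. A difference in Slc2a10 between the groups therefore cannot be told apart from that of the limits. Whether undetected probes outside the family followed the limit was not tested.

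Whether MPE changes the transcripts of these transporters was asked on log2 levels relative to the 75th percentile of each array. None of the 7 detected genes passed the test: 0 of 7 had an adjusted p under 0.05 by limma's moderated test, against 0.00453% of the 22060 genes tested (1 gene, higher with MPE). With this scaling there were also 0 of 7 at an unadjusted p under 0.05, against 4.11% of all genes. The groups overlapped for all 7, while they did not overlap for 4.53% of all genes. Unadjusted p-values were counted with this scaling only. Of the 7, 3 had a higher mean with MPE and 4 a lower one. Their median difference was -0.04 on the log2 scale, and that of all genes was -0.016. In bulk RNA, fewer cells that express a gene and less RNA per cell cannot be told apart.

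For Slc2a1 the log2 levels were 4.60, 4.29 and 4.39 with vehicle and 4.55, 4.78, 4.38 and 4.42 with MPE. The highest value belonged to MPE 2 and the lowest to vehicle 2, and the groups overlapped. The means were 4.43 ± 0.16 (SD, n = 3) with vehicle and 4.53 ± 0.18 (SD, n = 4) with MPE. MPE stood at 1.08 times vehicle, with a 95% interval of 0.883 to 1.31. The difference was 0.11 (SE 0.12, limma adjusted p = 1.00). Without MPE replicate 2 it was 0.02, and without vehicle replicate 2 it was 0.04.

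Slc2a3 stood at 1.48, 1.38 and 1.29 with vehicle and at 1.48, 1.48, 1.36 and 1.35 with MPE on the log2 scale. MPE was 1.02 times vehicle (95% interval 0.915 to 1.15), and the second probe had no level to compare. Slc2a5 stood at 6.47, 6.54 and 6.39 with vehicle and at 6.43, 6.44, 6.48 and 6.32 with MPE. MPE was 0.966 times vehicle (0.870 to 1.07). For both genes the interval included 1, and a p that misses the threshold does not show that the groups are equal.

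Slc2a4 had the smallest unadjusted p of the members, 0.0880 by limma, and an adjusted p of 1.00. Its log2 levels were -3.76, -3.54 and -3.63 with vehicle and -3.80, -3.93, -3.85 and -3.67 with MPE. The MPE values lay lower except that MPE 4 exceeded vehicle 1. MPE stood at 0.891 times vehicle (95% interval 0.777 to 1.02), a difference of -0.17 (SE 0.08). With quantile normalization the difference was -0.26 (SE 0.07) and in the authors' table -0.26 (SE 0.07). With median scaling it was -0.24 (SE 0.08), where the median of all genes was -0.09. With normexp background correction it was -0.13 (SE 0.05). In each of these it was larger relative to its SE than with the scaling reported. With trended robust variance the SE rose to 0.18. Unadjusted p-values were not counted in these alternatives, so the unadjusted result holds for the reported scaling only. The difference was below 0 in every alternative, from -0.26 to -0.11. The gene was close to the detection limit, which was higher on the MPE arrays, and the part of that limit in the difference was not tested.

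The first probe of Slc2a6 stood at 2.60, 2.72 and 2.63 with vehicle and at 2.59, 2.54, 2.72 and 2.59 with MPE. MPE was 0.973 times vehicle (0.875 to 1.08). The second probe gave 1.02 times vehicle (0.883 to 1.17) in the fit across all probes, where 0.0104% of 28874 probes were called and none of the 8 tested member probes was. The probes thus lay on either side of no change, each with an interval that covers it.

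Slc2a8 and Slc2a9 were the members that varied most between arrays. Slc2a8 stood at -2.46, -2.26 and -1.70 with vehicle and at -2.497, -2.08, -1.78 and -1.56 with MPE. Its SD was 0.39 (n = 3) with vehicle and 0.41 (n = 4) with MPE. MPE was 1.12 times vehicle with a wide 95% interval of 0.721 to 1.73, the only one of the 7 that reached beyond 1.5-fold. Of all genes tested, 80.7% had an interval within 1.5-fold. Slc2a9 stood at -1.52, -1.52 and -1.92 with vehicle and at -1.60, -1.50, -2.19 and -1.74 with MPE. MPE was 0.932 times vehicle (0.686 to 1.27).

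**Figure D2:**
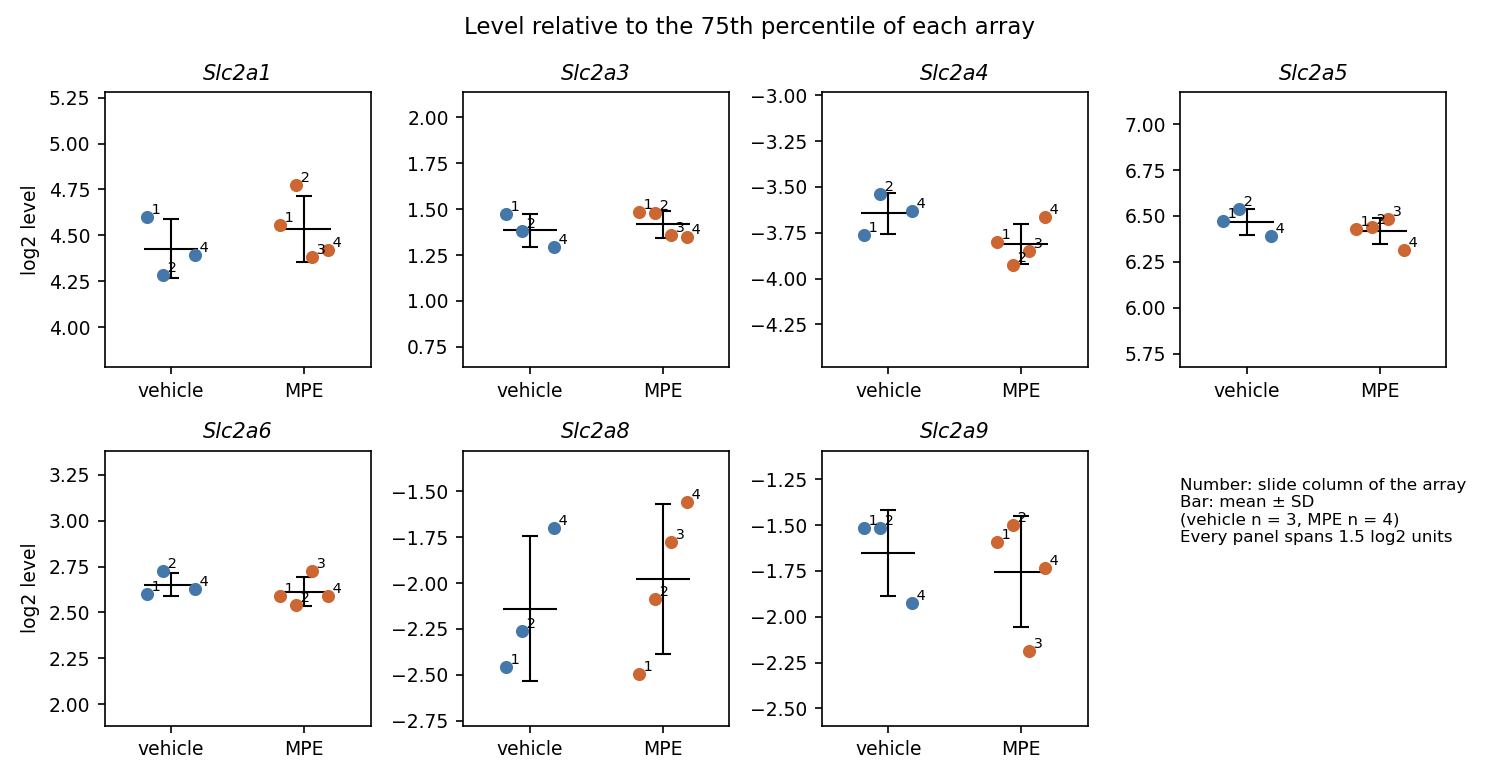
Log2 level relative to the 75th percentile of the array (vertical axis, every panel spanning 1.5 log2 units) of the 7 detected SLC2A genes in the vehicle (blue, n = 3) and MPE (orange, n = 4) groups, 1 point per array with the slide column beside it and bars for mean ± SD. The groups overlap in every panel, and the spread is widest for Slc2a8, whose arrays in columns 3 and 4 lie at -1.78 to -1.56 and those in columns 1 and 2 at -2.497 to -2.08.

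The levels of 3 of the genes did not overlap between the sides of the slide. Columns 1 and 2 held replicates 1 and 2 of both groups, and columns 3 and 4 held vehicle 3, MPE 3 and MPE 4, so slide side cannot be told apart from anything else that these replicates shared. For Slc2a8 the 4 arrays of columns 1 and 2 lay at -2.497 to -2.08 and the 3 arrays of columns 3 and 4 at -1.78 to -1.56, with no overlap and with means 0.65 apart on the log2 scale. For Slc2a9 the order was the opposite, with columns 3 and 4 lower by a mean difference of -0.41 and no overlap. For Slc2a3 columns 3 and 4 were also lower without overlap, by a mean difference of -0.12. These 3 of 7 genes compare with 27.8% of all genes tested whose levels did not overlap between the sides of the slide. This is a description without a test, and the side was looked at after the values were seen.

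Within a slide column, 3 pairs of arrays could be compared. The difference of MPE from vehicle in columns 1, 2 and 4 was -0.05, 0.49 and 0.03 for Slc2a1. It was -0.04, -0.39 and -0.03 for Slc2a4, below 0 in all 3 columns with column 2 apart from the others. For Slc2a8 it was -0.04, 0.17 and 0.14, and for Slc2a9 it was -0.08, 0.02 and 0.19. Slc2a5 was also lower with MPE in all 3 columns, by -0.04, -0.10 and -0.08, and so was the first probe of Slc2a6, by -0.01, -0.18 and -0.04. The second probe of Slc2a6 was not, at -0.03, -0.08 and 0.11. Slc2a3 was higher in all 3, by 0.01, 0.10 and 0.05. The share of all genes with the same sign in all 3 columns was not computed. In a fit blocked on slide column, Slc2a8 had a difference of 0.09 (SE 0.07) in place of 0.16 (SE 0.27), and Slc2a9 turned from -0.10 to 0.04 (SE 0.08). The limma adjusted p was 1.00 for each of the 7 genes in that fit, which takes no information from MPE 3, alone in its column.

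**Figure D3:**
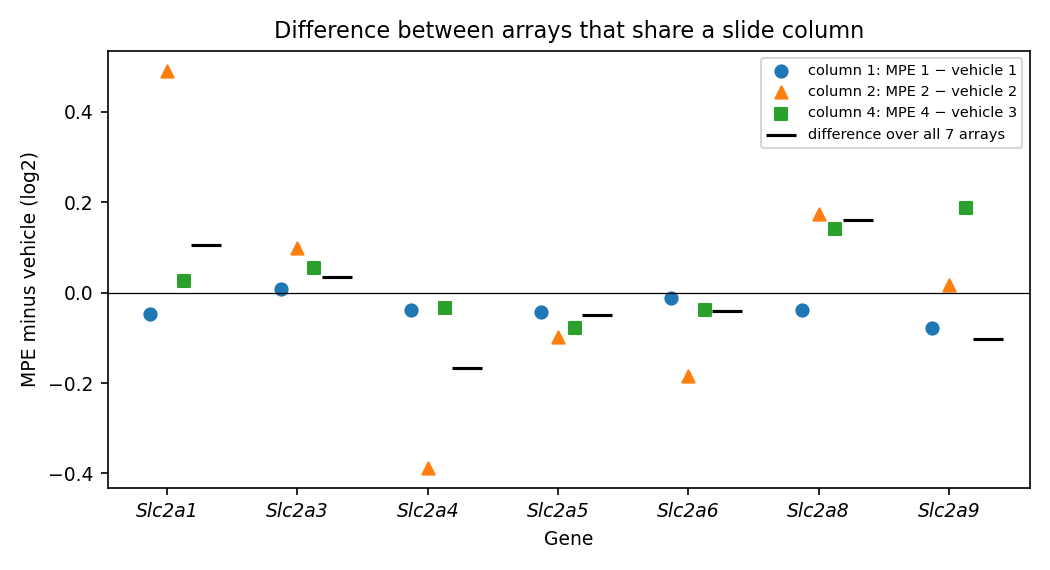
MPE minus vehicle on the log2 scale (vertical axis) for the 7 detected SLC2A genes (horizontal axis), within each slide column that held an array of both groups (circle column 1, triangle column 2, square column 4) and over all 7 arrays (bar). Slc2a1 and Slc2a4 differ mainly in column 2 (0.49 and -0.39). Slc2a4, Slc2a5 and the first probe of Slc2a6 lie below 0 in all 3 columns, and Slc2a3 lies above 0 in all 3.

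Other genes of sugar entry were read from a list of 43. These comprise other sugar transporters and the enzymes that trap sugar by phosphorylation or undo this, with the regulatory protein Gckr. They also comprise proteins that deliver GLUT proteins to the cell surface or remove them, and transcription factors of beta-cell sugar genes. Of the 43, 30 had a probe well above background on all arrays and 8 had none above background on any array. Of the 43, 31 could be tested. By limma 0 were called higher and 0 lower, with 2 of 31 at an unadjusted p under 0.05, where 4.11% of all genes were. One of the 2, Slc5a10, was placed on the list with its value known, so this count is not a test of the list. The median difference of the 31 was -0.02, against -0.016 for all genes.

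Among the transporters on that list, Slc2a13, the proton-coupled inositol transporter of the same family, was above background on all 7 arrays and stood at 0.999 times vehicle (0.873 to 1.14). Slc2a7, which is closest to Slc2a5 in the family, was above background on MPE 3 alone, where it gave 471 against 2.73 to 4.54 on the other 6 arrays. Of 7 sodium-coupled transporters of the SLC5A family, which take sugar up against its gradient, 1 was above background on all arrays and 5 on none. The former was Slc5a10, with log2 levels of -2.27, -2.16 and -2.29 with vehicle and -2.65, -2.83, -2.71 and -2.70 with MPE. It stood at 0.716 times vehicle (0.645 to 0.796) without passing over all genes (limma adjusted p = 0.316), and its place on the list was chosen with this value known.

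Another 10 genes encode enzymes that phosphorylate sugar or undo this, apart from Gckr, a regulatory protein. Of these 10, 5 were above background on all arrays and 3, with Gckr among them, on none. Hk1, a high-affinity hexokinase, stood at 0.971 times vehicle (0.885 to 1.07) with the brighter of its 2 probes. The other Hk1 probe, not above background on every array, differed by -0.15 on the log2 scale (SE 0.21). Hk2 was above background on no array. G6pc2, the islet glucose-6-phosphatase, had the smallest p of the 6 tested enzymes and stood at 0.942 times (0.828 to 1.07). None of the 6 passed, with 1 higher and 5 lower.

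All 14 genes of surface delivery were above background on every array, which includes Tbc1d4, Rab10, Sort1 and Lnpep, the machinery that moves GLUT4 in muscle and fat. Txnip, the arrestin-like protein that draws GLUT1 off the surface, stood at 1.03 times vehicle (0.834 to 1.27) with the brighter of its 2 probes and differed by -0.14 on the log2 scale with the other. Snap23, a membrane-fusion SNARE protein, had the smallest p of these genes, with an unadjusted limma p of 0.00901 and an adjusted p of 1.00. That was the brighter of its 2 probes, both above background on all arrays; it stood at 0.791 times vehicle (0.678 to 0.923), and its groups did not overlap. The other probe differed by -0.0063 on the log2 scale (SE 0.07), so the probes disagree. Of the 9 transcription factors tested, 7 had a higher mean and 2 a lower one, with 0 called, and Hnf4a had the smallest p, at 1.08 times vehicle (0.957 to 1.22).

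**Figure D4:**
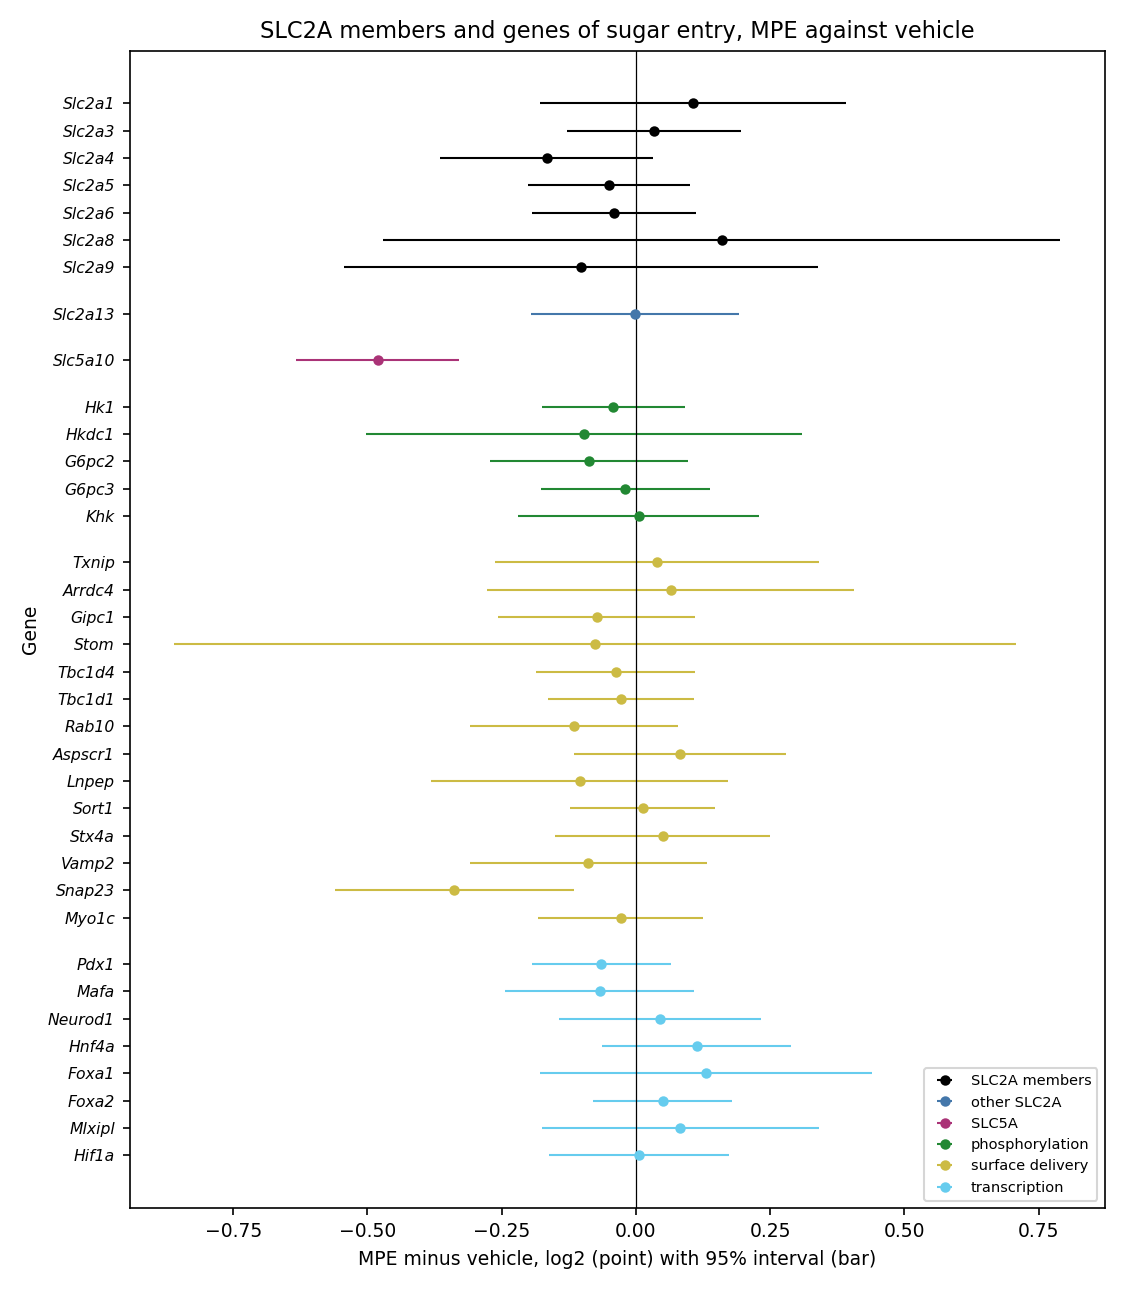
MPE minus vehicle on the log2 scale (horizontal axis; points, with 95% intervals as bars) for the 7 detected SLC2A genes and other tested genes of sugar entry (vertical axis), coloured by group. The intervals of all 7 SLC2A genes cross 0, and those of Slc5a10 and of the brighter Snap23 probe lie below it without an adjusted p under 0.05.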

How the data were processed

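Total RNA of MIN6 cells, labelled with Cy3 from 100 ng per the labels' protocols, was measured on Agilent mouse arrays in 1 colour. Per the file headers, Feature Extraction 11.5.1.1 (10.5.1.1 per the submitters' processing notes) made the deposited processed intensity by subtracting background and removing spatial trends array by array. The deposited median intensities, of spot and surroundings, are raw. The deposited flags mark spots that are well above background, saturated or outliers. The authors' value table holds log2 values that correlated with log2 intensity of the same array at 0.9996 or more, which sets their scale and direction. All its columns had a median of 4.438 and were not centred per gene, and how they were normalized is not known here.

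Control spots and 611 outlier values were dropped; 0 spots were saturated. Spots of a probe were averaged as log2 processed intensity, from which the 75th percentile of the array was subtracted. A probe had to be well above background on 3 or more arrays, and each gene took its probe with the highest mean (22060 genes). Symbols came from RefSeq accessions (32994 of 56605 probes), so probes annotated by other accessions were not matched. The groups were compared with limma 3.58.1 (lmFit, then eBayes; R 4.3.3), with Benjamini-Hochberg adjustment over all genes and a threshold of 0.05, and the same fit was run on 28874 probes. The fit was also run on simulated data with planted differences and independent noise. That simulation held no effect of slide row or column, so it cannot tell how such effects bear on the p-values. Alternatives covered scaling, background correction, filter, the authors' table, probe choice, variance, blocks and each array left out. The number of arrays limits the precision. Named were all members and, of the list of other sugar genes, the smallest p in each group and Hk1, Txnip, Slc5a10 and Slc2a13. Other genes of the list (Slc2a7, Hk2, Gckr, Khk, the GLUT4 machinery and transcription factors) and single markers were picked with their values in view. The members and lists were chosen with earlier results of these data known. Some genes of the list are counted but not reported singly here.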

Additional observations from a re-analysis of the deposited data

Results flagged for a closer look

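In the MPE group, 3 of the 14 SLC2A probes had 1 array far from the other 3, by a gap larger than Dixon's 95% critical value for 4 samples. All 3 probes were below background on every array, so no level can be read from them. Their other values sat where undetected probes of this family coincide on an array (signals of 4.30 for Slc2a2 and for the second probes of Slc2a9 and Slc2a12 on MPE 2), so the usual chance rate of such a gap, about 1 in 20 groups, does not apply. The probe of Slc2a2 stood at -5.94 on MPE 1 (log2 level), against -6.49 to -6.43 on the other MPE arrays. The second probe of Slc2a9 stood at -5.46 on MPE 4, against -6.49 to -6.43. The first probe of Slc2a12 stood at -5.00 on MPE 3, against -6.42 to -6.39.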

How the results depend on the processing

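The count of SLC2A genes called was 0 under every alternative except without a filter on dim probes, where it was 1 of the 10. That gene was Slc2a10, whose undetected signal followed the limit (difference 0.50, SE 0.05, limma adjusted p = 0.000398). Unfiltered, 9619 genes were called higher and 349 lower of 45478. With the filter as reported 1 gene was called higher, against 0 with normexp, with the filter on all 7 arrays, with the replicate block and with the slide column block, and 3 with trended robust variance. Leaving out each array gave 0 to 3 higher and 0 to 1 lower. Across probes the count of 3 became 0 with the filter on all 7 arrays. Detection of 8 probes did not move.

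Of 140 alternative values of the 7 SLC2A genes, 134 kept their sign and side of the threshold. Not all of them could move, since probe choice cannot move a gene with 1 kept probe. The filter and variance alternatives left every difference as reported and could only move its p. The slide column and replicate blocks gave the same differences as leaving out MPE 3 and MPE 4. The 140 values are therefore not independent. The lowest limma adjusted p was 0.298, for Slc2a4 without the filter. The sign turned for Slc2a3 with median scaling (-0.036, where the median of all genes moved from -0.016 to -0.09), for Slc2a9 with the slide column block (0.042) and for Slc2a6 with its lowest probe (0.023). Leaving out each array gave -0.011 to 0.080 for Slc2a3, -0.00054 to 0.38 for Slc2a8 and -0.24 to 0.042 for Slc2a9, turning the sign without vehicle 3, vehicle 1 and MPE 3 in that order. The lowest probe and the side of the slide as a term were alternatives chosen after seeing the data; with the latter Slc2a8 differed by 0.05 (SE 0.12).

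Of the other sugar genes, Txnip turned to -0.031 with median scaling, -0.048 with the mean of probes and -0.14 with its lowest probe. G6pc2 turned to 0.00455 with quantile normalization, 0.0098 with normexp, 0.0047 in the authors' table and 0.0018 with its lowest probe. Slc2a13 turned to 0.0033 with the percentile over detected probes, 0.017 with normexp and 0.043 with the replicate block. Hk1 turned to 0.0069 with normexp. Leaving out each array gave -0.046 to 0.043 for Slc2a13 and -0.045 to 0.11 for Txnip. Slc5a10 ranged from -0.55 to -0.24 and passed only without the filter (adjusted p = 0.00115), and Snap23 from -0.42 to -0.0063, the last with its second probe. The cause was not tested.

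The labels do not pair samples by replicate number, although numbers 1 and 2 also share a slide column. Deviations of same-numbered samples correlated at 0.25, 0.05 and 0.41, and vehicle 3 was the only vehicle array that correlated best with its own number. The replicate block took the genes called higher from 1 to 0 and left 0 SLC2A genes called.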
